A study of Mus musculus with 14 samples.

Results

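The transcripts described here encode 10 proteins that modify, fold and crosslink collagen: the lysyl oxidases Lox, Loxl1, Loxl2 and Loxl3, the lysyl hydroxylases Plod1 and Plod2, the prolyl 4-hydroxylase alpha subunits P4ha1, P4ha2 and P4ha3, and the collagen chaperone Serpinh1. They were chosen by symbol, and all 10 were found among the 43472 genes of each deposited table. The libraries came from primary fibroblasts of C57BL/6 mouse tail tips, freed with collagenase IV, grown as a monolayer and wounded with a scratch. Untreated cells were compared with cells given AMG (autologous micrograft), the soluble fraction of minced mouse skin from which cells were removed by centrifugation, diluted 1:10 in growth medium with 10% FBS. All cultures in both groups were wounded, so no library shows unwounded cells. The study calls the cells adult fibroblasts, and the sex and exact age of the mice are not given in the sources used here. Replicate 1 gave 1 untreated and 1 treated library at each of 4 times, 1, 5, 12 and 24 h. The other replicates, numbered 2, 3 and 4, gave 3 untreated and 3 treated libraries, all at 5 h.

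Collagen chains are changed inside the cell before they fold. Prolyl 4-hydroxylases add a hydroxyl group to proline, which stabilises the triple helix, and lysyl hydroxylases do the same to lysine, which sets the kind of crosslink that can later form. Both enzyme families need iron, oxygen and ascorbate. Serpinh1, also called heat shock protein 47, binds the folded procollagen and travels with it towards the Golgi. Outside the cell, the copper-dependent lysyl oxidases convert lysine and hydroxylysine into reactive aldehydes, from which the covalent crosslinks of collagen and elastin arise. Fibroblasts are the main source of these proteins in dermis and in healing wounds.

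The promoters of the 3 prolyl 4-hydroxylase alpha subunits are shown because the estimates for these paralogs at 5 h had different signs. P4ha1 and P4ha2 are known targets of hypoxia-inducible factors, so the core of the hypoxia response element, ACGTG or GCGTG on either strand, was searched in the 250 bases before each start site. Each sequence is from RefSeq (GRCm38.p6, plus strand, 5′ to 3′), and capitals mark every match, read on either strand. RefSeq promoters were at hand for 5 of the 10 genes (P4ha1, P4ha2, P4ha3, Plod1 and Serpinh1).
P4ha1, chr10:59323046-59323295: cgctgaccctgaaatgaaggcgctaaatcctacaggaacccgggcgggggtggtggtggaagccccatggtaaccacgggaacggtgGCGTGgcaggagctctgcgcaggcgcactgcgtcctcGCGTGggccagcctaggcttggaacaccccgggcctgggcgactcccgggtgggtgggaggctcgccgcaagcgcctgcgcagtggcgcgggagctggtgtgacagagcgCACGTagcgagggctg
P4ha2, chr11:54100674-54100923: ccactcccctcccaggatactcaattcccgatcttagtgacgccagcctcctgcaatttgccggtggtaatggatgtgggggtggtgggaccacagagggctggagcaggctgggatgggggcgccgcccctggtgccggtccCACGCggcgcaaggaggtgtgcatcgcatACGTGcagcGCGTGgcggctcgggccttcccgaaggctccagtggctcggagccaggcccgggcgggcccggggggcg
P4ha3, chr7:100285270-100285519: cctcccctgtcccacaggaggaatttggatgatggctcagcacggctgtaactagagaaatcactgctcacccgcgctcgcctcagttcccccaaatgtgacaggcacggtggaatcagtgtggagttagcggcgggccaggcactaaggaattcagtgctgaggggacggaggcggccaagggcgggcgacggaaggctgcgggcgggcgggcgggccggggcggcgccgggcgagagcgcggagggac
P4ha1 held 3 matches, which began at -163, -126 and -16 from the start site, P4ha2 held 3 at -107, -78 and -69, and P4ha3 held 0. Plod1 and Serpinh1 held 1 match each, at -20 and -171. Of all 32851 promoters of this length searched, 38.6% held at least 1 match. The AP-1 site TGANTCA, found in 6.75% of promoters, and the heat shock element core GAANNTTC, found in 6.69%, matched in 0 of the 5. The window of P4ha2 lies inside the longer gene model of GENCODE, which begins further upstream at 54100095. These letters describe the windows only, since binding was not measured.

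Reads assigned to genes numbered 12545537 to 34696529 per library, and 100% of the deposited values came out as whole reads. Values are normalised counts, which are reads divided by the size factor of the library, set separately for the 8 libraries of replicate 1 and the 6 libraries of replicates 2 to 4. Normalised counts are therefore compared only within one of these sets. All 10 fibroblast markers were detected in both sets, with a summed level of 13959.5 to 52865 RPM (reads scaled to library depth). In replicates 2 to 4 this sum was 35834 to 52865 RPM untreated and 27910 to 36418 RPM treated, and its part in the results at 5 h was not tested. Keratinocyte markers summed to 1.75 to 15.6 RPM and Krt1 was at 0 throughout. Adipocyte and red blood cell markers stayed at or below 0.511. Skeletal muscle markers summed to 15.1 to 417 RPM, nearly all of it Acta1, while Myh4 and Myog were at 0 in replicates 2 to 4. Acta1 was lower with AMG in each pair of replicates 2, 3 and 4, at log2 ratios of -0.74, -0.41 and -0.60 (adjusted p = 0.526 with limma, 0.00207 with the replicate block), so that it moved with the group, and its part in the results at 5 h was not tested. Leukocyte markers summed to 9.41 to 79.4 RPM. Lyz2 stood at 46.6 and 52.1 RPM in replicate 4 against 4.4 to 8.8 in replicates 2 and 3, and Cd3e was at 0 throughout. Among cartilage and bone markers, Col2a1 stood at 1221 RPM in Untreated 5h replicate 2 and 663 in AMG-treated 5h replicate 2, against 11.1 to 58.7 in replicates 3 and 4. In replicate 1 at 24 h, Col2a1 stood at 56.2 RPM untreated and 6.49 treated. Acta1 stood at 38.4 and 14.4 there, and Lyz2 at 49.6 and 14.5. At 5 h the values were 32.9 and 38.5 for Col2a1, 65.6 and 67.4 for Acta1, and 68.0 and 14.8 for Lyz2. The part of these genes in the ratios of replicate 1 was not tested. Ribosomal protein transcripts took 7.00% of reads in Untreated 5h replicate 1 and 5.10% in AMG-treated 1h replicate 1, against 2.27 to 3.47% in the other 12 libraries. Both enter the ratios of replicate 1, the first that of 5 h and the second that of 1 h. In bulk RNA, fewer cells of a type and less RNA per cell cannot be told apart.

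Levels were first ranked per transcript length (reads per exonic base, scaled to the same total in every library, as TPM is). In replicates 2 to 4, Lox was highest at 2536 to 4942 on this scale, and its range overlapped that of Serpinh1, 2362 to 3295. Loxl2 followed at 720 to 897, without overlap with Serpinh1 above or P4ha1 below. P4ha1 stood at 321 to 472. Loxl3 (168 to 539), Plod2 (152 to 319), P4ha2 (172 to 229), Loxl1 (119 to 508) and Plod1 (79.3 to 175) overlapped in part. P4ha3 was lowest at 22.5 to 49.4. Lox and Serpinh1 were also the top pair in replicate 1, with medians over 8 libraries of 2616 and 2225 on the same scale, and P4ha3 was again lowest with a median of 22.8.

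At 5 h the question was which of these transcripts differed between treated and untreated wounded cells. Among the prolyl 4-hydroxylase alpha subunits, P4ha3 was lower with AMG by 0.59 on the log2 scale, P4ha2 was higher by 0.35, and P4ha1 differed by -0.05. Loxl3 was lower by 0.51, and Serpinh1, with the smallest spread of all 10 genes, differed by -0.06. None of the 10 passed an adjusted p of 0.05 in the unpaired test (limma on log2(normalised count + 1), 13096 genes, replicates 2 to 4), where 0.97% of all genes were called higher and 0.267% lower. At an unadjusted p under 0.05, 1 of the 10 genes stood, P4ha3, against 23.1% of all genes. Libraries with the same replicate number deviated together, and with the replicate number as a block limma called 3 of the 10. P4ha2 was called higher, against 17.9% of all genes, and Loxl3 and P4ha3 lower, against 19.3%. Counts of 1 and 2 of 10 are close to these shares and are no result about the genes as a set. With edgeR and DESeq2 on the recovered reads, without the block, 0 of the 10 were called. Over all genes, edgeR called 0.817% higher and 0.214% lower, and DESeq2 called 6.52% and 4.43%. No called gene of the 10 was past 1 on the log2 scale, which 0.855% (higher) and 0.244% (lower) of all genes were without the block and 4.05% and 4.28% with it. The median log2 fold change of the 10 was -0.10, beside -0.02 for all 13096 genes, with 3 of 10 above 0. The labels do not say whether the replicates came from separate mice, so p-values measure the spread between these samples.

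**Figure D1:**
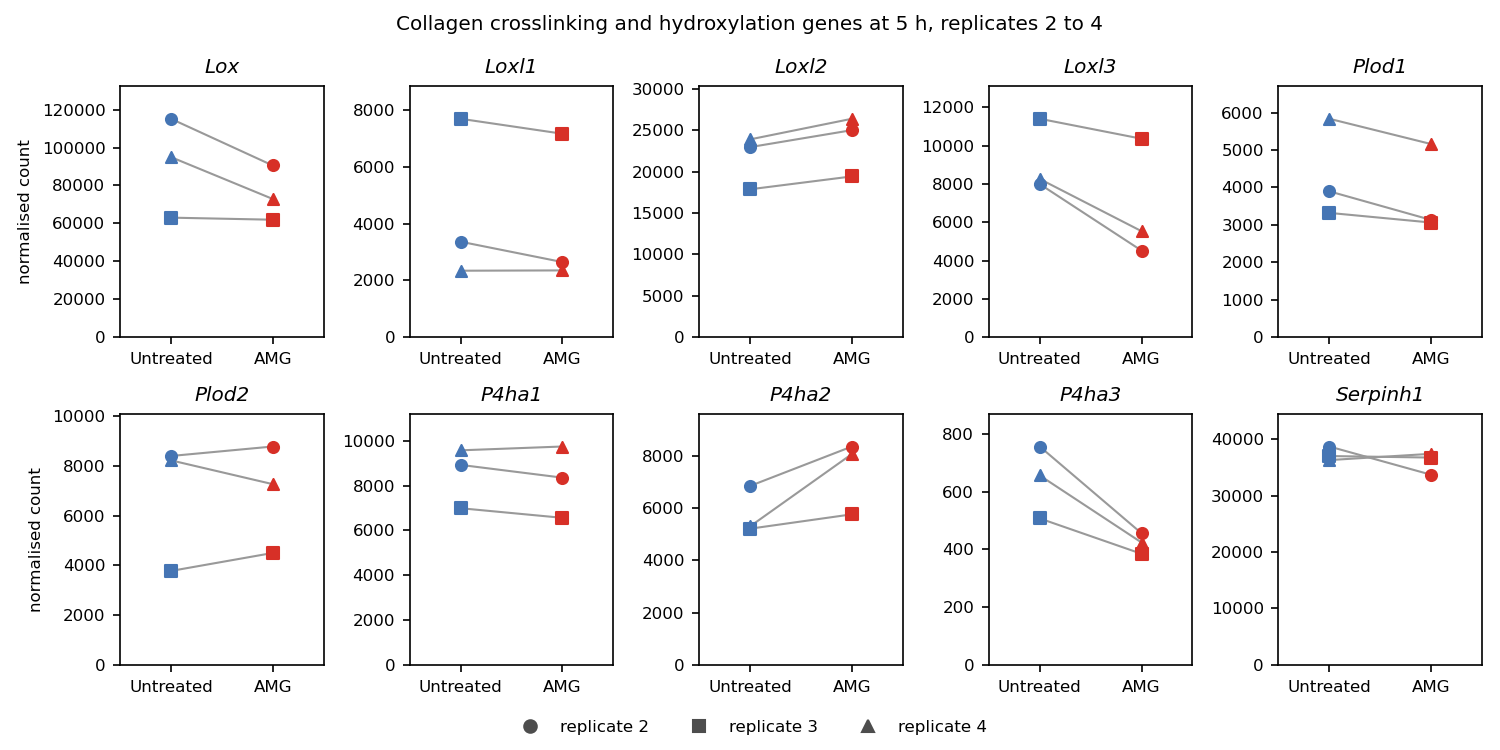
Normalised counts (linear axis from 0) of the 10 genes in untreated (blue) and AMG-treated (red) libraries at 5 h, with grey lines joining libraries of the same replicate number (circle 2, square 3, triangle 4). The groups are separate for P4ha3 alone, while all 3 lines also fall for Lox, Loxl3 and Plod1 and all 3 rise for Loxl2 and P4ha2.

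P4ha1, P4ha2 and P4ha3 each encode a catalytic alpha subunit that pairs with the protein disulfide isomerase P4hb. P4ha3 (chromosome 7, 100285520 to 100319699, plus strand, mm10) had normalised counts of 756, 507 and 656 in untreated replicates 2, 3 and 4 and of 455, 384 and 424 in treated ones. Every treated value lay under every untreated value, which P4ha3 alone of the 10 genes showed. Over all genes tested, 13.6% had non-overlapping groups with AMG lower and 15.1% with AMG higher. The mean went from 639 ± 125 to 421 ± 35.6 (SD, n = 3 each), a log2 fold change of -0.59 (SE 0.18, 95% interval -1.02 to -0.15, adjusted p = 0.137 with limma). In the fit with the replicate block limma gave an adjusted p of 0.00580, and DESeq2 on the recovered reads without the block gave 0.0525. Leaving out replicate 2 from both groups left no call in the blocked fit, and the adjusted p over all settings ran from 9.2e-05 to 0.733. Replicate 1 at 5 h went the other way, with 297 untreated and 510 treated, a log2 ratio of 0.78.

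P4ha2 (chromosome 11, 54100095 to 54131665, plus strand) had normalised counts of 6844, 5209 and 5299.6 in untreated replicates 2, 3 and 4 and of 8351, 5758 and 8065 in treated ones. The groups overlapped, since treated replicate 3 lay under untreated replicate 2, but each treated library was above the untreated one of its number. Mean values were 5784 ± 919 and 7391 ± 1421 (SD, n = 3 each). The log2 fold change was 0.35 (SE 0.19, interval -0.11 to 0.80, adjusted p = 0.318 with limma), and blocking on the replicate number gave 0.0287. The blocked call was lost without replicate 2 and without replicate 4 of both groups, and adjusted p over all settings ran from 0.000384 to 0.622. Replicate 1 at 5 h stood on the same side, at 3496 untreated and 4663 treated, so that P4ha2 was higher in 4 of 4 replicates. Of all genes, 15.7% were higher in 4 of 4 and 16.0% lower, which none of the 10 was.

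P4ha1 (chromosome 10, 59323296 to 59373304, plus strand), the most abundant of the 3 per length, had normalised counts of 8924, 6991 and 9574 untreated and of 8355, 6563 and 9744 treated. Replicate 3 was lowest and replicate 4 highest in both groups, and the groups overlapped almost fully. The log2 fold change was -0.05 (SE 0.19, interval -0.51 to 0.41, adjusted p = 0.894 with limma). Decreases of more than 0.51 and increases of more than 0.41 on the log2 scale lie outside this interval, smaller ones do not. With the replicate block the interval was -0.25 to 0.14.

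As a share of the 3 alpha subunits per length, P4ha2 made up 31.3, 31.0 and 25.1% in untreated replicates 2, 3 and 4 and 38.1, 35.0 and 34.0% in treated ones. P4ha3 made up 6.87, 6.00 and 6.18% and then 4.13, 4.64 and 3.56%. Both shares were separate between the groups, P4ha2 higher and P4ha3 lower with AMG. P4ha1 held 53.2 to 71.0% in all 14 libraries and was the largest part in each. In replicate 1 at 5 h the share of P4ha2 went from 29.7 to 38.4%, and that of P4ha3 from 5.01 to 8.36%.

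The lysyl oxidases start crosslinking. Loxl3 (chromosome 6, 83034173 to 83052562, plus strand), a lysyl oxidase needed for skeletal and palate development, had normalised counts of 7990.3, 11400 and 8257 in untreated replicates 2, 3 and 4 and of 4519, 10358 and 5532 in treated ones. Replicate 3 was highest in both groups, and the treated values of replicates 2 and 4 lay under all untreated ones. The means were 9216 ± 1896 and 6803 ± 3120 (SD, n = 3 each), and the log2 fold change was -0.51 (SE 0.32, interval -1.27 to 0.24, adjusted p = 0.363 with limma). Blocking on the replicate number gave an adjusted p of 0.0119. Without AMG-treated 5h replicate 3 the unpaired test also called Loxl3 lower, at -0.86 (adjusted p = 0.0366, limma), and without AMG-treated 5h replicate 2 it gave -0.26 (adjusted p = 0.722, limma). The blocked call was lost without replicate 2 of both groups. The range over all settings was 2.37e-06 to 0.772, and in replicate 1 at 5 h the log2 ratio was 0.26. Loxl3 overlaps Htra2 on the other strand, and the strand setting of the counting is not given in the sources used here, so reads of the pair may be mixed.

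Lox (chromosome 18, 52516067 to 52529867, minus strand), the main enzyme of the family in connective tissue, had normalised counts of 115162, 63023 and 94967 untreated and of 90531, 61927 and 72872 treated. Each treated library was under its untreated partner, by as little as 0.03 on the log2 scale in replicate 3. The log2 fold change was -0.25 (SE 0.28, interval -0.92 to 0.42, adjusted p = 0.621 with limma). Leaving out Untreated 5h replicate 2 gave -0.06 and leaving out Untreated 5h replicate 3 gave -0.50. Lox passed in 1 setting only, the blocked fit without replicate 3 of both groups (-0.36, adjusted p = 0.0114), which called 27% of all genes lower. In replicate 1 at 5 h the ratio was 0.13. An antisense transcript, AC161119.1, overlaps the gene.

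Loxl2 (chromosome 14, 69609068 to 69695834, plus strand), which acts on basement membrane and fibrillar collagens, had normalised counts of 22988, 17887 and 23924 untreated and of 25041, 19444 and 26417 treated. The paired log2 ratios were 0.12, 0.12 and 0.14 in replicates 2, 3 and 4, the most even of the 10 genes, and 1.21 in replicate 1. The gene was thus higher with AMG in 4 of 4 replicates. Loxl2 and P4ha2 were the 2 genes above 0 in replicates 2, 3 and 4 (31.9% of all genes), and Lox, Loxl3, Plod1 and P4ha3 were the 4 below 0 in all 3 (34.5% of all genes). The fold change over replicates 2 to 4 was 0.13 on the log2 scale (SE 0.19, interval -0.32 to 0.58), and it passed in no setting (adjusted p = 0.717 with limma, lowest 0.0639). Loxl2 overlaps the antisense gene Gm27177.

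Loxl1 (chromosome 9, 58287738 to 58313186, minus strand), an enzyme of elastic fibre assembly, varied more with the replicate number than with AMG. Its normalised counts were 3367, 7701 and 2343 untreated and 2649, 7173 and 2354 treated. Replicate 3 was 3.16 times replicate 4 (geometric mean of both groups), the widest such gap of the 10 genes, where Serpinh1 had the narrowest at 1.02. The log2 fold change was -0.15 (SE 0.56, interval -1.46 to 1.17, adjusted p = 0.899 with limma), and its sign turned when any of 3 single libraries was left out. With the replicate block the interval was -0.36 to 0.07.

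Within the family, counting Loxl4 as the fifth enzyme, Lox held 57.1 to 76.3% of the reads per length in the 14 libraries. Loxl2 made up 13.5, 15.2 and 16.2% in untreated replicates 2, 3 and 4 and 18.1, 16.8 and 21.9% in treated ones. The treated shares all lay above the untreated ones, while those of Lox overlapped (69.9 ± 8.25% untreated, 67.7 ± 6.79% treated, SD, n = 3 each). On the same per-length scale, Loxl2 itself stood at 872, 720 and 897 untreated and at 793, 724 and 813 treated. The family sum was lower in each treated library than in its partner, at 6477, 4733 and 5531 untreated and 4373, 4301 and 3708 treated. The sums of the lysyl hydroxylases (821, 660 and 848 untreated, 640, 635 and 667 treated) were also lower in each pair. Those of the alpha subunits were too, at 719, 586 and 686 untreated and 602, 531 and 631 treated. The lysyl oxidase sum went the other way in replicate 1 at 5 h, at 2681 untreated and 4187 treated. In replicate 1 at 5 h the share of Loxl2 was 7.09% untreated and 13.9% treated. The share of Loxl1 was 2.61 to 3.23% in replicates 2 and 4 and 10.2 to 10.7% in replicate 3.

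**Figure D2:**
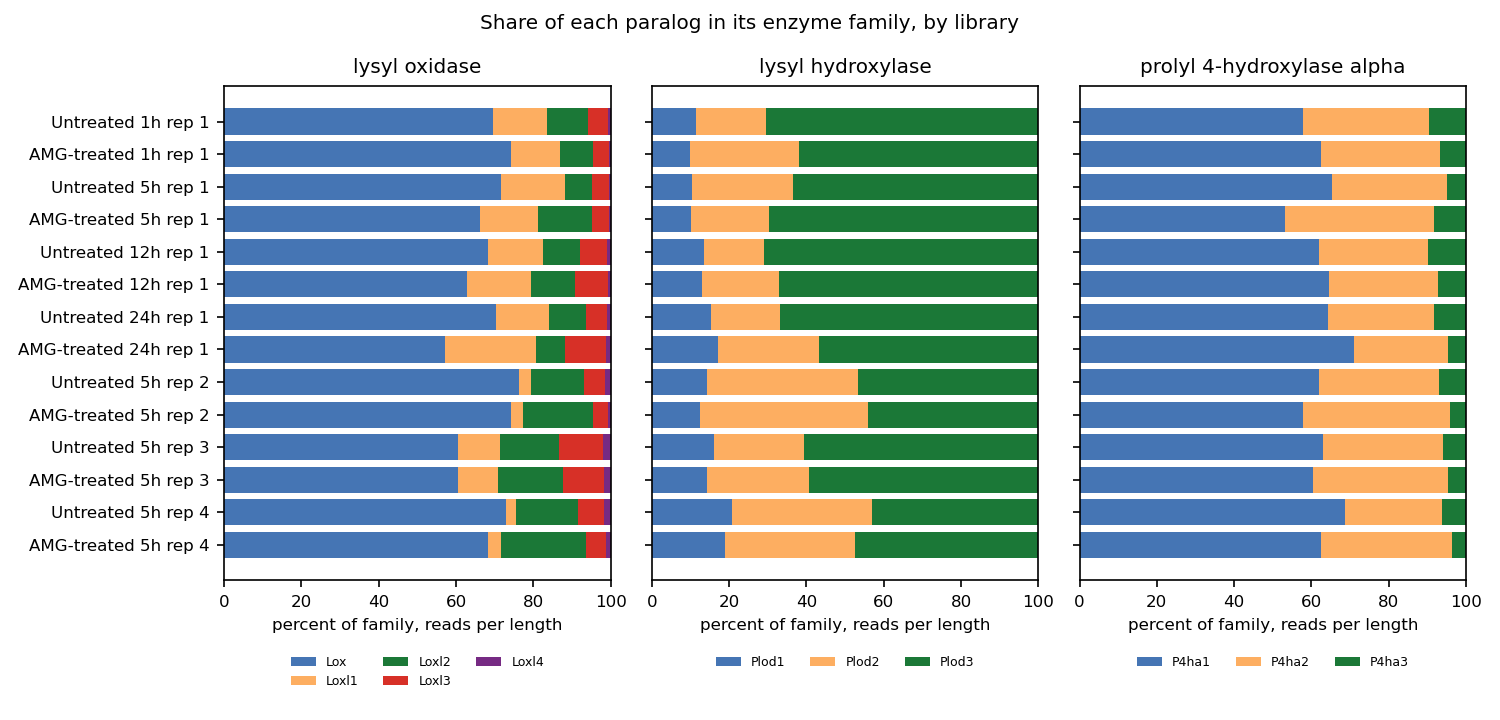
Share (percent, reads per exonic base) of each paralog in the lysyl oxidase, lysyl hydroxylase and prolyl 4-hydroxylase alpha families, 1 bar for each of the 14 libraries, replicate 1 above. Lox, Plod3 and P4ha1 lead their families in all 14 libraries, and the Loxl2 part is wider in each treated bar at 5 h than in the untreated bar of the same replicate number.

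Plod1 hydroxylates lysines within the collagen helix and Plod2 those of the telopeptides at its ends. Plod1 (chromosome 4, 147909753 to 147936767, minus strand) had normalised counts of 3897, 3321 and 5836 untreated and of 3132, 3063 and 5161 treated. Each treated library was lower than its partner, and replicate 4 stood above the others in both groups. The log2 fold change was -0.20 (SE 0.28, interval -0.87 to 0.46, adjusted p = 0.697 with limma). It passed only in the blocked fit without replicate 3 of both groups (-0.25, adjusted p = 0.0164), which called 27% of all genes lower. Replicate 1 gave 0.19.

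Plod2 (chromosome 9, 92542223 to 92608428, plus strand) had normalised counts of 8396, 3776 and 8222 untreated and of 8778, 4499 and 7265 treated. Replicate 3 lay lowest in both groups, and the paired ratios went both ways, at 0.06, 0.25 and -0.18 on the log2 scale. The fold change was 0.05 (SE 0.38, interval -0.84 to 0.94, adjusted p = 0.955 with limma). Together with Plod3, the third lysyl hydroxylase, Plod1 made up 9.98 to 20.6% of the family per length in the 14 libraries, Plod2 15.5 to 43.6% and Plod3 42.9 to 70.9%. In replicates 2 to 4 the share of Plod2 was 32.8 ± 8.51% untreated and 34.5 ± 8.61% treated (SD, n = 3 each), which differed by less than the spread.

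Serpinh1 (chromosome 7, 99345376 to 99353239, minus strand) had the smallest spread of the 10 genes at 5 h. Its normalised counts were 38713, 37023 and 36308 untreated and 33709, 36753 and 37421 treated, a mean of 37348 ± 1235 and 35961 ± 1978 (SD, n = 3 each). The log2 fold change was -0.06 (SE 0.14, interval -0.39 to 0.28, adjusted p = 0.843 with limma), or -0.19 after the length correction (adjusted p = 0.506, and 0.143 with the block). The correction also moved Plod1 to -0.08, Plod2 to 0.14 and Loxl2 to 0.22, and none of these 4 passed with or without the block.

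**Figure D3:**
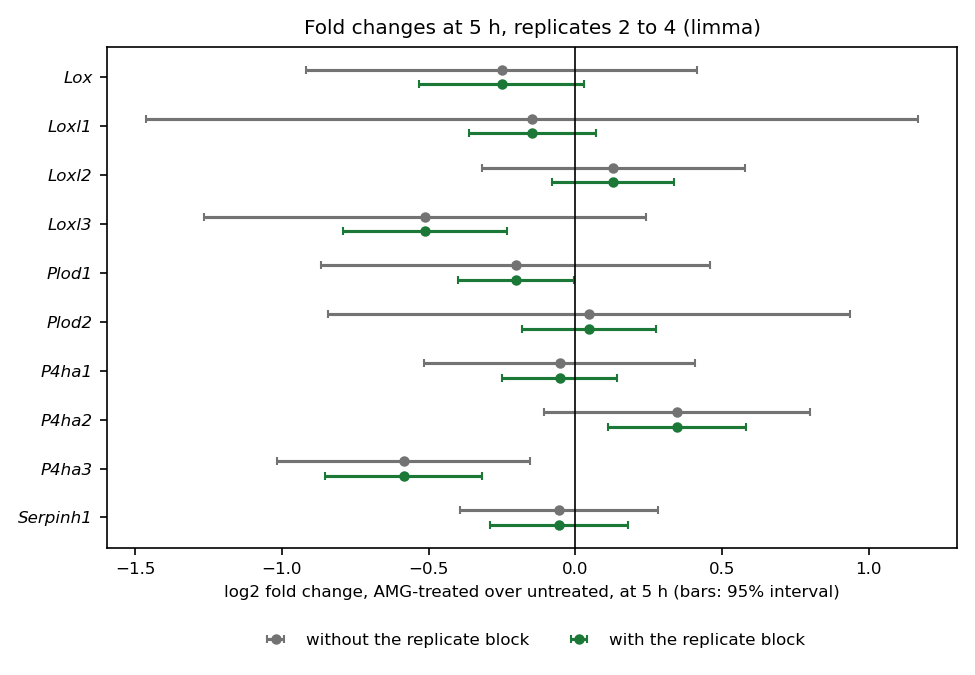
Log2 fold change of each gene with AMG at 5 h (replicates 2 to 4, limma), with 95% intervals without (grey) and with (green) the replicate block. The estimates are the same in both fits, from -0.59 for P4ha3 to 0.35 for P4ha2, and the block narrows the intervals, most for Loxl1.

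Across replicate numbers 2, 3 and 4 (both groups together), 4 genes had the widest gaps between the highest and the lowest number. As a fold, these were Loxl1 (3.16), Plod2 (2.08), Loxl3 (1.81) and Plod1 (1.72). Loxl1 and Loxl3 were highest in replicate 3, in which Lox, Loxl2, Plod1, Plod2, P4ha1, P4ha2 and P4ha3 were all lowest. Col2a1 also differed by number, with its peak in replicate 2. It was lower with AMG in each pair too, at log2 ratios of -0.83, -0.33 and -0.67 (adjusted p = 0.879 with limma, 0.00368 with the replicate block). Its part in these gaps and in the results at 5 h was not tested.

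The other genes of the pathway comprised 26 hydroxylases, glycosyltransferases, export and propeptide-cleaving factors, of which 23 were tested at 5 h. The unpaired limma test called 0 of the 23, with 1 at an unadjusted p under 0.05, and 12 were above and 11 below 0, with a median log2 fold change of 0.01. With the replicate block 1 of 23 was called higher and 5 lower, against 17.9% and 19.3% of all genes. The lowest adjusted p values among those below 0 belonged to Loxl4, the fifth lysyl oxidase, at -0.86 (0.134, and 0.00661 with the block in limma) and Sec24d, a coat protein of the vesicles that export procollagen, at -0.47 (0.235, and 0.0198 with the block). Among those above 0 they belonged to Ppib, a prolyl isomerase of the prolyl 3-hydroxylation complex, at 0.26 (0.478, not called with the block) and Adamts14, a procollagen N-proteinase, at 0.89 (0.485, and 0.00282 with the block). P4hb, the shared partner of the alpha subunits, differed by 0.06 (adjusted p = 0.897 with limma), and Plod3 by -0.03 (0.913).

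Transcripts of fibrillar collagens, the substrates of these enzymes, were lower in 5 of 6 cases at 5 h, with a median log2 fold change of -0.53. Unpaired limma called 1 higher, Col5a3, and none lower, and the blocked fit called the other 5 lower, where it called 19.3% of all genes lower. In replicate 1 at 5 h, 6 of 6 were above 0 instead, with a median log2 ratio of 0.50. Of 12 hypoxia-inducible genes 10 were above 0, with a median of 0.47, and limma called 2 higher (Vegfa and Egln3), or 6 with the block, against 0.97% and 17.9% of all genes. In replicate 1 at 5 h, 6 of the 12 were above 0, with a median of 0.12. Among the 10 collagen-modifying genes, the blocked fit called P4ha2 higher and Loxl3 and P4ha3 lower, and a link to these lists was not tested.

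In replicate 1 the time course had 1 library per group and time, so that ratios carry no test, and the intervals given cover counting error only. Treated over untreated, the number of genes below 0 was 8 of 10 for 1 h, 3 for 5 h, 9 for 12 h and 9 for 24 h. The median log2 ratios of the 10 were -0.27, 0.16, -0.37 and -0.44, beside -0.06, -0.01, -0.01 and 0.02 for all 13498 genes. After the length correction 5 of 10 were below 0 at 1 h, with a median of -0.13, and the counts at the other times were the same. More than 2-fold ratios were seen in 0 genes at 1 h and 12 h, in Loxl2 at 5 h (higher) and in Lox, Loxl2 and P4ha3 at 24 h (all lower). Of all genes, 11.3% were past 2-fold higher and 10.7% past 2-fold lower at 1 h. These shares were 13.3 and 12.6% at 5 h, 5.93 and 6.9% at 12 h, and 6.05 and 8.05% at 24 h. Plod2 was the exception at 12 and 24 h.

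**Figure D4:**
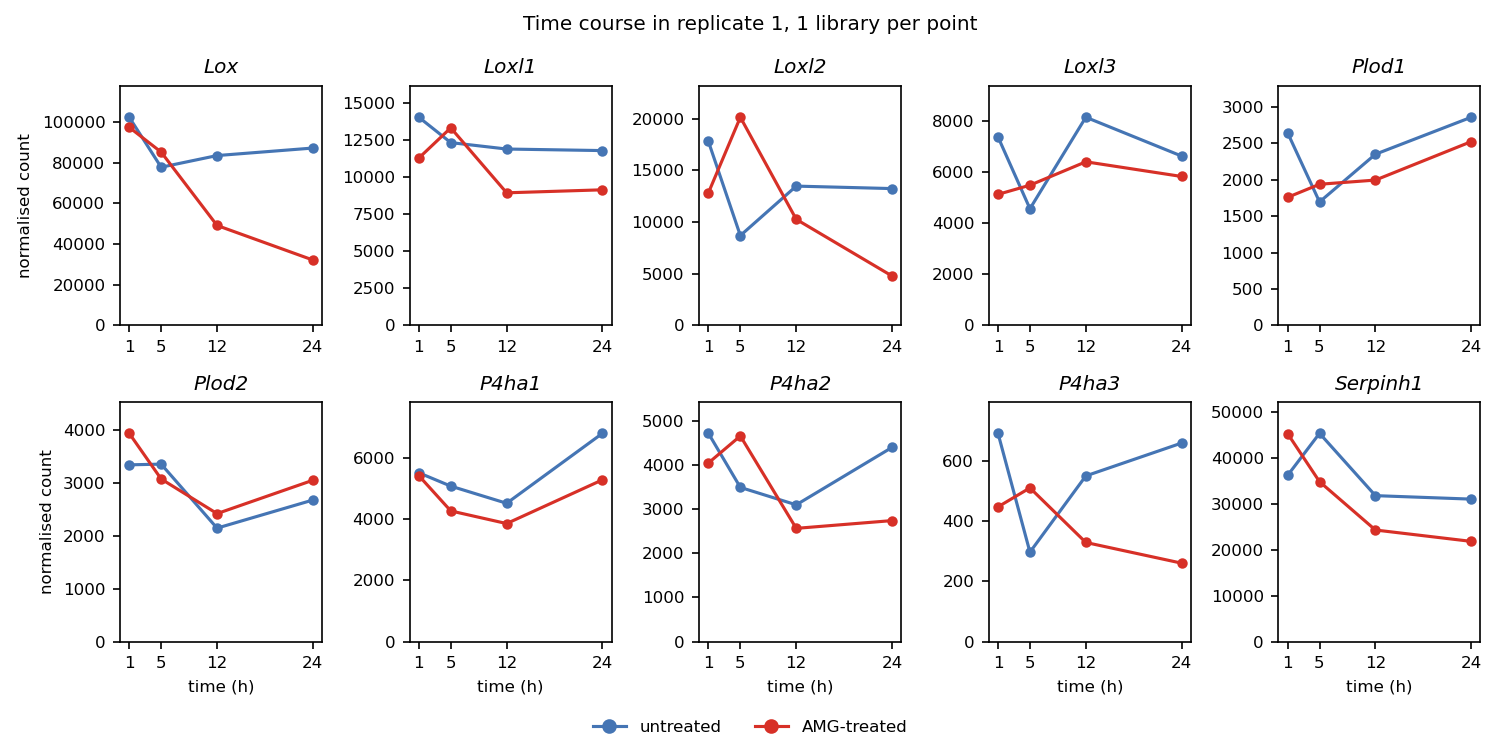
Normalised counts (linear axes from 0) in replicate 1 at 1, 5, 12 and 24 h, untreated in blue and AMG-treated in red, 1 library for each point. Treated Lox goes down from 97348 at 1 h to 32166 at 24 h while untreated Lox stays between 77743 and 102293. The lines of Lox, Loxl1, Loxl2, Loxl3, Plod1, P4ha2 and P4ha3 cross between 1 and 5 h and again between 5 and 12 h.

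Lox had untreated normalised counts of 102293, 77743, 83468 and 87162 at 1, 5, 12 and 24 h, and treated counts of 97348, 85165, 49138 and 32166. The untreated level was lowest at 5 h, and the treated level was lower at each later time. Treated over untreated, the log2 ratio stood at -0.76 at 12 h and -1.44 at 24 h (counting interval -1.46 to -1.42), or 2.71 times lower at 24 h. Within the family its share at 24 h was 70.3% untreated and 57.1% treated, the lowest of all 14 libraries.

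Loxl2 had untreated normalised counts of 17805, 8700.4, 13486 and 13247 and treated counts of 12838, 20150.4, 10272 and 4788. The treated library was higher at 5 h only. The log2 ratio was -0.47, 1.21, -0.39 and -1.47 at 1, 5, 12 and 24 h, and at 24 h the untreated level was 2.77 times the treated one. The untreated library at 5 h, which had 7.00% of ribosomal protein reads, was 2.05 times under that of 1 h, and the treated one was 1.57 times over. The part of the ribosomal share in this ratio was not tested. Corrected for gene length in each library, the ratio at 5 h was 1.07.

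P4ha3, measured on far fewer reads, had ratios of the same sign as Loxl2 at each time, as did Lox, Loxl1, Loxl3, Plod1 and P4ha2. P4ha3 had untreated normalised counts of 691, 297, 549.6 and 659 and treated counts of 447, 510, 329 and 260.1. The log2 ratios were -0.63, 0.78, -0.74 and -1.34, with counting intervals of -0.84 to -0.42 at 1 h and -1.54 to -1.15 at 24 h. Its untreated level at 5 h was 2.32 times under that of 1 h, and its treated level 1.14 times over. Corrected for gene length, the ratio was 0.98.

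P4ha2 had log2 ratios of -0.22, 0.42, -0.27 and -0.68, and P4ha1 ratios of -0.02, -0.25, -0.23 and -0.36. Untreated P4ha2 went from 4722 at 1 h through 3496 and 3101 to 4403 at 24 h, and treated P4ha2 from 4049.7 through 4663 and 2567 to 2743. At 1 h the sign of P4ha2 depended on gene length, since the corrected ratio was 0.03. As a share of the 3 alpha subunits at 24 h, P4ha1 had 64.3% untreated and 71.0% treated, P4ha2 27.5 and 24.4%, and P4ha3 8.18 and 4.60%.

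Serpinh1 had untreated normalised counts of 36146, 45299.9, 31743 and 30988 and treated counts of 45237, 34776, 24268 and 21796. The highest treated value was at 1 h and the highest untreated value at 5 h, in the libraries with the largest ribosomal protein shares. The log2 ratios were 0.32, -0.38, -0.39 and -0.51. After the length correction those at 1 and 5 h were 0.00, and those at 12 and 24 h were -0.27 and -0.62.

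Loxl1 and Loxl3 stayed within 2-fold at each time. Loxl1 had log2 ratios of -0.31, 0.11, -0.41 and -0.37, and Loxl3 ratios of -0.52, 0.26, -0.35 and -0.19. The share of Loxl1 in its family was largest in AMG-treated 24h replicate 1, at 23.6%, beside 13.8% in the untreated library.

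Plod1 had ratios of -0.59, 0.19, -0.24 and -0.18, of which the value at 5 h was -0.08 after the length correction. Plod2 had ratios of 0.24, -0.13, 0.17 and 0.19, and was the single gene of the 10 above 0 at both 12 and 24 h. Its normalised counts at 24 h were 2680.3 untreated and 3055 treated, and its share of the family went from 17.9 to 26.1%.

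**Figure D5:**
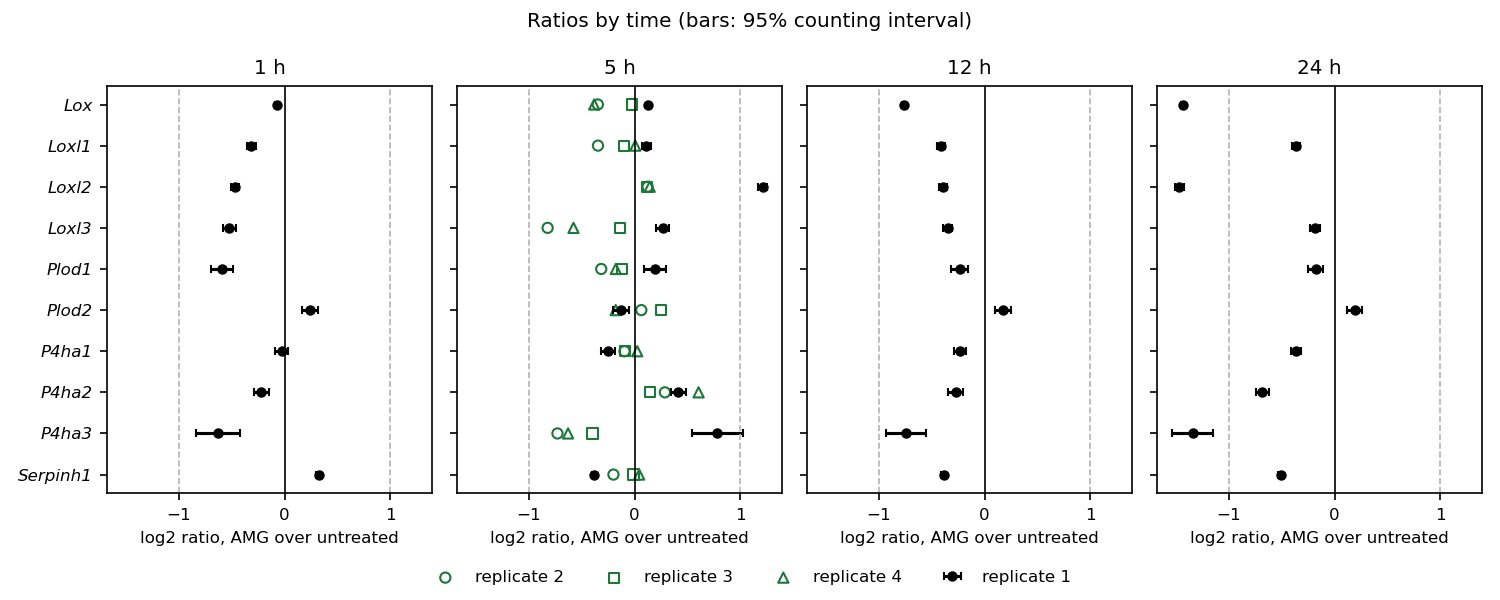
Log2 ratio of AMG-treated to untreated normalised counts of each gene at 1, 5, 12 and 24 h in replicate 1 (black, bars are 95% counting intervals) and in replicates 2, 3 and 4 at 5 h (open green symbols), with dashed lines at a 2-fold ratio. At 24 h Lox, Loxl2 and P4ha3 lie past the left line at -1.44, -1.47 and -1.34. At 5 h replicate 1 lies outside the range of the other replicates for all genes but Plod2 and P4ha2, farthest for Loxl2 and P4ha3.

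Over time within each arm of replicate 1, untreated Loxl2 and P4ha3 were past 2-fold lower at 5 h than at 1 h (-1.03 and -1.22), where 16.8% of all genes were. With the length correction the value of Loxl2 was -0.79. None of the 10 was past 2-fold higher at that time (15.5% of all genes), nor past 2-fold at 12 h (5.39% of genes higher, 7.01% lower) or 24 h (7.02 and 7.62%) over 1 h in untreated cells. In treated cells Lox (-1.60), Loxl2 (-1.42) and Serpinh1 (-1.05) were past 2-fold lower at 24 h than at 1 h, against 16.7% of all genes, and none was higher (16.2%). At 5 h (11.5% higher, 10.3% lower) and 12 h (16.8 and 17.6%) none of the 10 was past 2-fold. Lox at 12 h stood at -0.99, just inside, and at -1.12, past 2-fold, after the length correction. Serpinh1 at 24 h stood at -0.83 after the length correction. Fibrillar collagen transcripts at 24 h were below 0 in 5 of 6 cases, treated over untreated, with a median of -1.13. Hypoxia-inducible genes had a median of 0.34 at that time with 8 of 12 above 0, and the other pathway genes a median of -0.22 with 20 of 24 below 0.

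Genes with the most similar pattern were sought among 10886 genes by the smaller of 2 Pearson correlations, over the 8 libraries of replicate 1 and over the 6 of replicates 2 to 4, which share libraries and depth and are given as a description. For Lox these were Mme (r = 0.96 and 0.98) and Ogn (0.97 and 0.95), for Loxl2 Prg4 (0.98 and 0.89) and Smtn (0.88 and 0.93), and for Loxl3 Adamts12 (0.96 in both) and Zfp518a (0.91 and 0.96). For P4ha3 they were Sept11 (0.94 and 0.93) and Adamtsl3 (0.92 and 0.96). Loxl1 was closest to Nipal4 and Trpv2, Plod1 to Pcdhgb2 and Skiv2l, Plod2 to Tnfaip6 and Glmp, P4ha1 to Epdr1 and Dync2li1, P4ha2 to Gm7694 and Dnajb2, and Serpinh1 to Tm7sf2 and Fdps. Among the 10 themselves, Lox and P4ha3 (0.78 and 0.81) and Loxl2 and P4ha2 (0.74 and 0.75) were most alike in both sets, and Loxl3 and Plod2 (-0.68 and -0.76) were most opposed.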

How the data were processed

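RNA was measured by poly(A) sequencing (TruSeq stranded mRNA, single-end reads of 50 bases) in 14 libraries of wounded mouse fibroblasts. Per the submitters' processing notes and the study's methods, the authors trimmed adapters, aligned reads to mm10 with TopHat2 2.0.13, kept unique alignments with SAMtools 0.1.19.24 and counted reads per gene with HTSeq 0.5.3p3. The annotation release and strand setting are not given in the sources used here. The deposited values are a signal per gene, namely read counts that the authors divided by DESeq size factors, separately in 2 tables. Divided by the smallest step of each library, 100% of values were whole reads within 0.1, and 0 columns were left unmapped.

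Groups and replicate numbers came from the sample titles. The study names DESeq and does not say whether its comparison was paired. The main test, without a block, was limma 3.58.1 (lmFit, eBayes with a trend, R 4.3.3) on log2(normalised count + 1) for 13096 genes with a mean of at least 10, with Benjamini-Hochberg adjustment over all of them and calls at an adjusted p under 0.05. Fold changes on this scale understate low genes. Libraries with the same number were correlated in their deviations from the group means (r = 0.65 to 0.76, against -0.59 to 0.12 for different numbers), so the numbers were taken as pairs, although the labels do not say what they share. Ratios in replicate 1 used a 2-fold limit and exact 95% intervals on recovered reads. With 1 library per group and time, these intervals cover counting error only. Reads carry no molecular identifiers, so repeated copies of a molecule are not told apart and the intervals may still be too narrow. Lengths and positions are from GENCODE M21 (GRCm38). Alternatives were pseudocounts of 0.1 and 10, other filters, scalings, count models of the recovered reads (edgeR 4.0.16, DESeq2 1.42.0), the replicate block, a length correction and leaving out libraries. The limma fits with and without the block were tried on simulated data, while the count models and the length correction were not. All 10 genes were named by symbol. Of the pathway list the text names genes called without the block or, as here, the 2 with the lowest adjusted p in each direction. P4hb, Plod3 and genes of the other lists were named after their values were seen. The members and lists were chosen with earlier results of these data known.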

Additional observations from a re-analysis of the deposited data

Results flagged for a closer look

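Loxl3 in AMG-treated 5h replicate 3 lay far from the other treated libraries at 5 h, at 577 RPM (reads scaled to library depth) against 243 to 281 in the other 3. The gap to the nearest library was 0.886 of the range of the 4, above Dixon's 95% critical value for 4 samples. Among the 20 sets of 4 libraries searched, about 1 in 20 is flagged by chance. The untreated library of the same number also had the highest Loxl3.

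Loxl2 was higher with AMG in all 4 replicates at 5 h, with log2 ratios of 0.12 to 1.21, and lower in replicate 1 at 1 h (-0.47), 12 h (-0.39) and 24 h (-1.47). P4ha2 was likewise higher in all 4 at 5 h, with log2 ratios of 0.14 to 0.61, and lower at 1 h (-0.22), 12 h (-0.27) and 24 h (-0.68). There was 1 pair of libraries at each of these other times, and the differences between times were not tested. The value of P4ha2 at 1 h was 0.03 after the length correction.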

How the results depend on the processing

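The number of the 10 genes called at 5 h depended on the replicate block. It was 0 higher and 0 lower without it, under other pseudocounts, filters and scalings, limma without the trend, edgeR, DESeq2, edgeR with replicate 1 and the table as a batch, and the length correction. It was 1 higher (P4ha2) and 2 lower (Loxl3 and P4ha3) with the replicate block in limma, in edgeR and with the length correction. Leaving out 1 library gave 0 higher and 0 to 1 lower. The 1 was Loxl3 without AMG-treated 5h replicate 3, where 8.04% of all genes were called lower. The blocked fit without 1 replicate number of both groups, an alternative chosen after seeing the data, gave 0 to 1 higher and 0 to 4 lower. It gave 0 of each without replicate 2, 4 lower without replicate 3 and 2 lower without replicate 4. In the same order, these fits called 5.75, 27 and 10.2% of all genes lower and 5.81, 25.1 and 10.3% higher. The block also changed the pathway counts, from 0 to 1 higher and 5 lower in limma, 2 and 4 in edgeR and 2 and 5 with the length correction. Without AMG-treated 5h replicate 3 these were 0 and 3, and the blocked fits without a number gave 1 to 4 higher and 0 to 6 lower. Over all genes, the test called 127 higher and 35 lower, against 2345 and 2527 with the block, 854 and 580 with DESeq2, 56 and 24 without the trend, 1146 and 1053 without AMG-treated 5h replicate 3, and 1 and 0 without AMG-treated 5h replicate 2.

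The sign of Lox, Loxl3, P4ha2 and P4ha3 at 5 h held in every fit, with ranges of -0.50 to -0.06, -0.86 to -0.26, 0.25 to 0.52 and -0.74 to -0.46 when 1 library was left out. That of Loxl1 turned when a library was left out (range -0.65 to 0.34, with 0.06 and 0.15 without AMG-treated 5h replicates 2 and 4), as did that of Loxl2 (-0.0013 to 0.26), Plod1 (-0.45 to 0.030), P4ha1 (-0.19 to 0.10, 0.04 without Untreated 5h replicate 4) and Plod2 (-0.33 to 0.32, with -0.16 and -0.02 without AMG-treated 5h replicates 2 and 4). Plod2 was also below 0 in edgeR with replicate 1 (-0.013) and in the blocked fit without replicate 3 (-0.057), and Serpinh1 was above 0 in that without replicate 2 (0.017). None of these passed, and the cause was not tested. In replicate 1 the treated to untreated counts past 2-fold were the same under every alternative. Between times they were not. Untreated Loxl2 at 5 h over 1 h was within 2-fold after upper quartile rescaling (-0.95) and the length correction (-0.79), as was treated Serpinh1 at 24 h over 1 h after the length correction (-0.83). Treated Lox at 12 h over 1 h was past it under TMM factors (-1.01), upper quartile rescaling (-1.04) and the length correction (-1.12). Treated to untreated ratios changed sign for Lox, P4ha1 and P4ha2 at 1 h and for Plod1 and Serpinh1 at 5 h. Without replicates, depth limits P4ha3 most.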
